A study of Mus musculus with 14 samples.

Results

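miR-126 is measured here as its 2 strands, mmu-miR-126-3p and mmu-miR-126-5p, which were taken by name from the 1247 mouse miRNAs on the array and followed over all 14 arrays of the study. The study gave male C57BL/6 mice of 6 to 8 weeks a radioprotective drug or phosphate-buffered saline (PBS), exposed them to 8 Gy of gamma rays or to 0 Gy, and collected tissue 12 h later. Bone marrow had 5 arms with a pair of arrays, 8 Gy and 0 Gy, in each: nilestriol (150 mg/kg into the stomach, i.g., 48 h before irradiation), amifostine (10 mg/kg into the abdomen, i.p., 0.5 h before), CBLB502 (0.2 mg/kg i.p., 0.5 h before), PBS i.g. and PBS i.p. Hypothalamus had the amifostine and PBS i.p. arms at both doses. By the labels of each sample, RNA of 3 mice was pooled for an array, so no condition had a second array. The p-values below rest on the spread between arms. For drugs at 8 Gy alone and for drug by irradiation they rest on the gap between both PBS routes.

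As background, miR-126 is made from a hairpin within Egfl7, a gene of blood vessel endothelium, and it is widely used to mark endothelial cells. Its 3p strand represses Spred1 and Pik3r2, brakes on the signal that vascular endothelial growth factor sends into the cell, and its 5p strand represses the Notch regulator Dlk1 in endothelium. miR-126 is also present in haematopoietic stem cells, where it restrains entry into the cell cycle, and in megakaryocytes and platelets. Amifostine is a thiol prodrug, CBLB502 a modified bacterial flagellin, a ligand of Toll-like receptor 5, and nilestriol a long-acting oestrogen.

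The hairpin and the probes are shown because the 2 strands were read by different probes of unequal quality. In the RefSeq table of build GRCm38.p6 the hairpin Mir126a lies on the plus strand at chr2:26591357-26591429, inside Egfl7 (chr2:26581083-26592682). The table gives no exons. The mature 3p strand lies at chr2:26591402-26591423, and its seed, bases 2 to 8 in capitals, is carried by only 1 of the 1679 mature mouse names in the table. In the hairpin the capitals mark the stretches complementary to the 5p probes (left) and the 3p probes (right). All sequences run 5′ to 3′, the probes as DNA.
Mir126a hairpin: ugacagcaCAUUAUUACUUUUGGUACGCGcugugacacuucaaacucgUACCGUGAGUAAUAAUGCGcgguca
miR-126-3p: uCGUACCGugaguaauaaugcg
A_54_P2285 (miR-126-3p): cgcattattactcacggt
A_54_P2286 (miR-126-3p): cgcattattactcacggta
A_54_P1035 (miR-126-5p): cgcgtaccaaaagtaataatg
A_54_P4367 (miR-126-5p): cgcgtaccaaaagtaataat
The 3p probes pair with bases 5 to 22 and 4 to 22 of the mature strand, so neither covers the whole seed. A second hairpin, Mir126b, lies on the opposite strand of the same place (chr2:26591363-26591420), and the letters of both 5p probes also occur in its mature 3p strand. Those of the 3p probes do not. That strand has the probes' own letters and would pair with miR-126-5p, not with its probes.

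The arrays measured the 3p strand well in both tissues and the 5p strand poorly in bone marrow. The signals used are the processed spot intensities of the scanner software, averaged over spots and probes and divided by the array's own 75th percentile, taken over those miRNAs that every array of that tissue detected. Each strand had 40 spots per array, 20 for each probe. For miR-126-3p all 20 spots of each probe were well above background on every array, and the coefficient of variation over the spots of a probe was 1.02 to 4.37% in hypothalamus and 2.95 to 6.58% in bone marrow. For miR-126-5p probe A_54_P1035 varied by 5.87 to 10.4% in hypothalamus and by 17.4 to 68.5% in bone marrow, where 0 to 16 of its 20 spots were well above background. Probe A_54_P4367 varied by 14.7 to 27.9% in hypothalamus and by 32.1 to 233% in bone marrow, with 0 of 20 spots well above background there. Both 3p probes gave the same 8 minus 0 Gy difference to within 0.07 (log2) in each of the 7 arms, while those of the 5p probes differed by up to 0.94.

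Over all arrays 332 to 403 miRNAs were detected in bone marrow and 478 to 582 in hypothalamus, and no spot was saturated. The tissue labels were checked against marker miRNAs. The neuron list (miR-124-3p, miR-9-5p, miR-9-3p and miR-128-3p) was detected in full on all 4 hypothalamus arrays, and its first 3 members on 0 of 10 bone marrow arrays. The myeloid and blood list (miR-223-3p, miR-142-3p and miR-142-5p) was far lower in hypothalamus. It summed there to 13.6 to 19.6% of the 75th percentile, against 3607 to 8997% in bone marrow, each tissue on its own scale. The erythroid list summed to 272 to 343% in hypothalamus, where miR-451a was detected on all 4 arrays, against 4554 to 30354%. The lymphoid list was not lower, with 288 to 389% in hypothalamus against 115 to 284% in bone marrow. The smooth muscle and pericyte list had 2 of 4 members detected in hypothalamus and 0 or 1 of 4 in bone marrow. The arrays lay on 3 slides: slide 1 held bone marrow CBLB502 and PBS and hypothalamus PBS, slide 2 bone marrow nilestriol and amifostine, and slide 3 hypothalamus amifostine. Nilestriol and amifostine thus cannot be told apart from slide when set against PBS, whereas 8 and 0 Gy of each arm shared a slide.

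miR-126-3p was detected on all 14 arrays and lay between 390.7 and 523% of the 75th percentile in hypothalamus and between 27.1 and 121.6% in bone marrow. In bone marrow at 8 Gy it stood at 122% with nilestriol, 54.2% with amifostine, 80.9% with CBLB502, 115.0% with PBS i.g. and 75.8% with PBS i.p. At 0 Gy it stood at 27.1% with nilestriol, 40.8% with amifostine, 59.1% with CBLB502, 82.6% with PBS i.g. and 62.9% with PBS i.p. The nilestriol arm thus held both the highest and the lowest of the 10 bone marrow arrays, and within each arm the 8 Gy array was the higher one. In order of level the arrays ran from nilestriol at 0 Gy through amifostine at 0 and 8 Gy, CBLB502 and PBS i.p. at 0 Gy, PBS i.p. and CBLB502 at 8 Gy, and PBS i.g. at 0 and 8 Gy to nilestriol at 8 Gy. Of the 9 steps between neighbours, 3 were larger than 0.39 (log2), the gap between both PBS arrays at 0 Gy: those above nilestriol at 0 Gy (0.59), above amifostine at 0 Gy (0.41) and above PBS i.g. at 0 Gy (0.48). The gap between both PBS arrays at 8 Gy was 0.60, wider than the largest of these steps.

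**Figure D1:**
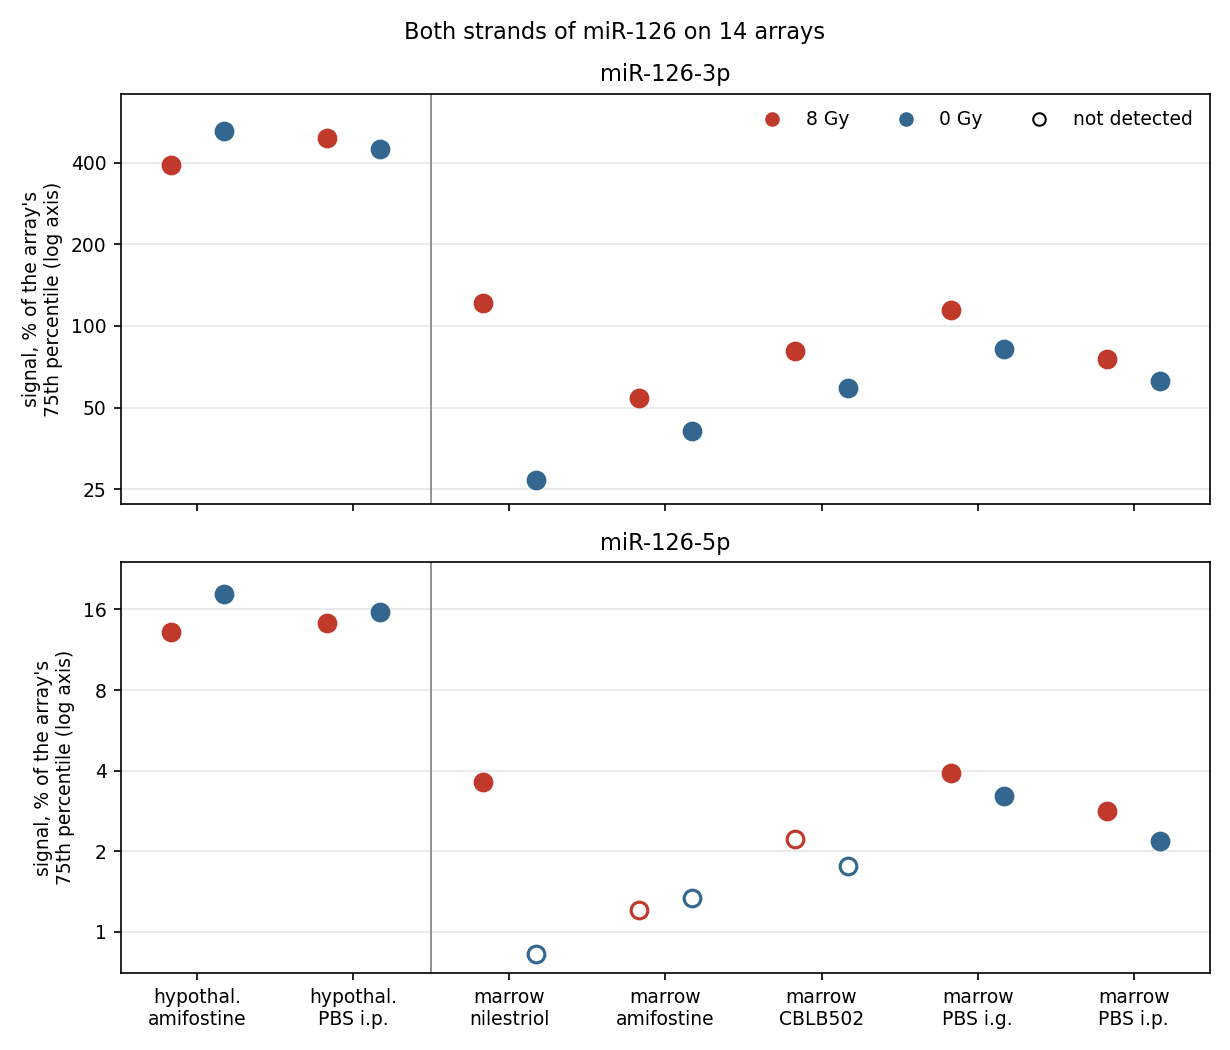
Signal of miR-126-3p (top) and miR-126-5p (bottom) on each of the 14 arrays, in percent of the array's 75th percentile on a log axis, with 8 Gy in red, 0 Gy in blue and open circles where the strand was not detected. Each tissue is scaled over its own detected miRNAs, so levels left and right of the line are not on a shared scale. In bone marrow each 8 Gy point of miR-126-3p lies above its 0 Gy point, with the widest gap under nilestriol (122 against 27.1%).

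miR-126-5p was detected on 4 of 4 hypothalamus arrays and on 5 of 10 bone marrow arrays, namely the 4 PBS arrays and nilestriol at 8 Gy. In bone marrow at 8 Gy it measured 3.61% with nilestriol, 1.20% with amifostine, 2.22% with CBLB502, 3.91% with PBS i.g. and 2.83% with PBS i.p. At 0 Gy it measured 0.826% with nilestriol, 1.33% with amifostine, 1.76% with CBLB502, 3.20% with PBS i.g. and 2.18% with PBS i.p. The highest array was PBS i.g. at 8 Gy and the lowest nilestriol at 0 Gy. Values below a floor of -5.31 on the log2 scale were raised to it before testing, which set 6 of the 10 bone marrow arrays to 1 shared value, so in bone marrow the fits say little about the size of any 5p difference.

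The first comparison asked whether 8 Gy changed miR-126 in bone marrow. miR-126-3p was higher at 8 Gy in 5 of 5 arms, but unevenly, and it did not pass the test across arms. Its 8 minus 0 Gy difference was 2.17 (log2) with nilestriol, a 4.50-fold higher signal, against 0.41 with amifostine, 0.45 with CBLB502, 0.48 with PBS i.g. and 0.27 with PBS i.p., which are 1.20- to 1.39-fold. Of the 371 miRNAs tested 75 were higher in all 5 arms, which is 20.2%. The fit over the 10 arrays with the arm as a block gave 0.76 ± 0.30 (log2, SE, 95% interval 0.03 to 1.48, adjusted p = 0.128 with limma), where 47 of 371 miRNAs, 12.7%, were called. In bulk tissue such a difference may be a matter of how many cells carry the miRNA or of how much each holds, which cannot be told apart.

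The call turned on the nilestriol arm. Without it the difference was smaller but regular, 0.40 ± 0.09 over the other 4 arms, and miR-126-3p was called (adjusted p = 0.0353 with limma), in a fit that called 24.3% of 366 miRNAs. With an offset instead of the floor it was also called, at 0.72 (adjusted p = 0.0456, 16.7% called). In the PBS arms alone the difference was 0.39 ± 0.11 for miR-126-3p and 0.26 ± 0.08 for miR-126-5p (adjusted p = 0.184 and 0.196 with limma), where 0 of 362 miRNAs passed, 0%, and 107 had an unadjusted p under 0.05. By slide, the 3p difference was 0.41 within slide 1, which held CBLB502 and PBS (adjusted p = 0.0641 with limma, 2.79% called), and 1.32 within slide 2, which held nilestriol and amifostine (adjusted p = 0.379, 0% called and 102 of 398 at an unadjusted p under 0.05).

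The small differences depended on the scaling. Before scaling, the amifostine arrays had signals of 125.7 at 8 Gy and 125.6 at 0 Gy, a difference of 0.00 (log2). The nilestriol arrays had 342.4 at 8 Gy and 89.2 at 0 Gy, a difference of 1.94. The other arms differed by 0.37 with CBLB502, 0.60 with PBS i.g. and 0.48 with PBS i.p. before scaling. In the authors' deposited value table, whose scaling is not settled here, PBS i.p. had 7.60 at both doses while nilestriol had 8.39 at 8 Gy and 6.38 at 0 Gy. The nilestriol difference was thus between 1.94 and 2.17 on each of these scales, and in the other 4 arms it lay between 0.00 and 0.67.

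For miR-126-5p the fit gave 0.19 ± 0.11 (adjusted p = 0.255 with limma). Without the floor its 8 minus 0 Gy differences were 2.13 with nilestriol, 0.29 with PBS i.g. and 0.37 with PBS i.p., and -0.15 with amifostine and 0.34 with CBLB502, where it was detected at neither dose. The nilestriol value, 4.37-fold, is a ratio to a signal that was not detected at 0 Gy. It is thus neither a measured difference nor a bound. Probe by probe, the 3p probes measured differences of 2.13 and 2.20 in this arm. The 5p probes read 2.14 and 2.06, but 0 of their 40 spots were well above background at 0 Gy, so these readings have no measured lower end. In the amifostine arm the 5p probes read -0.02 and -0.96, without detection at either dose.

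**Figure D2:**
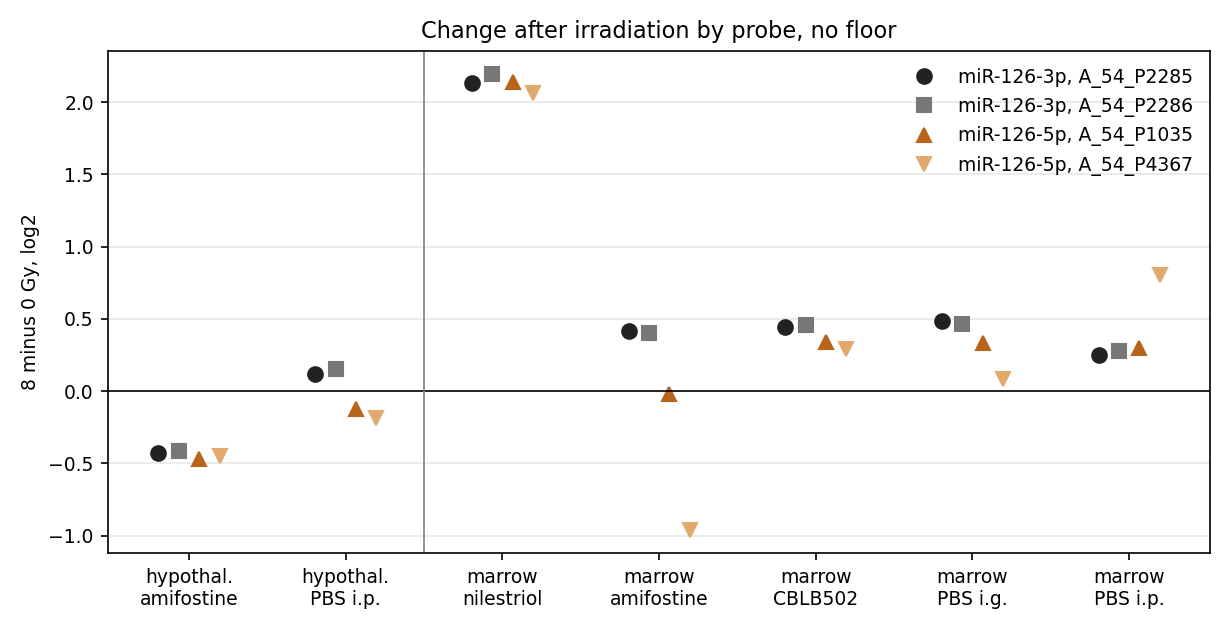
Difference between 8 and 0 Gy (log2, no floor) in each of the 7 arms, as read by each of the 4 miR-126 probes. The 3p probes overlie each other in every arm and lie at 2.13 and 2.20 in the nilestriol arm, while the 5p probes scatter in bone marrow. Their 2.14 and 2.06 under nilestriol are taken against a 0 Gy array without detection and are not measured differences.

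Whether the drugs altered the response to 8 Gy was tested as the drug by irradiation difference. For nilestriol miR-126-3p gave 1.80 ± 0.52 (log2, 95% interval 0.15 to 3.44), the sixth highest of 371 miRNAs, with an unadjusted p of 0.0400 and an adjusted p of 0.194 in limma. In that test 0% of miRNAs were called, 85 had an unadjusted p under 0.05, and the median over all was 0.23. With an offset instead of the floor, and likewise with normexp background correction, the value was 1.71 and miR-126-3p was called. In both settings this fit gave the 2 strands 1 shared SE, so these calls did not rest on the spread of miR-126-3p itself. For CBLB502 and amifostine the differences were 0.08 ± 0.52 and 0.04 ± 0.52 (adjusted p = 0.986 and 0.991), whose intervals run from -1.56 to 1.72 and from -1.61 to 1.68. All 3 comparisons share the same 4 PBS arrays, and the lone drug arrays were assumed to vary like the PBS pairs, which differ in route.

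Within the nilestriol arm miR-126-3p had the fourth highest 8 minus 0 Gy difference of 371 miRNAs, among 33, or 8.89%, that exceeded 1 on the log2 scale. It ranked from 45 to 142 in the other arms. Other groups of miRNAs in this arm differed to unequal extents. The median 8 minus 0 Gy difference was 2.0 for the erythroid list, 1.55 for skeletal muscle, 1.06 for stroma and bone, 0.75 for stem and progenitor and 0.42 for angiogenesis and endothelium, beside 0.09 over all 371 miRNAs. It was 0.51 for the megakaryocyte and platelet list, of which miR-126-3p is 1 of the 3 members tested. That value is the one of miR-223-3p, which is also in the myeloid and blood list. The median was 0.46 for the 2 oligodendrocyte miRNAs, 0.20 for the 1 neuron miRNA tested and 0.15 for myeloid and blood. The lymphoid median was -0.16, with 0 of 3 members higher. With PBS i.p. the medians of the first 5 lists were 1.20, 0.10, -0.00, -0.02 and -0.00 beside 0.11. With PBS i.g., the route of nilestriol, they were 0.74, -0.20, -0.09, 0.00 and -0.06 beside -0.02. With amifostine, on the slide of nilestriol, they were 1.66, 0.91, 0.51, 0.22 and 0.19 beside 0.02. With CBLB502 they were 0.87, -0.03, 0.16, 0.05 and -0.02 beside 0.09.

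Markers of some other cell types moved with miR-126-3p on the nilestriol arrays, and those of others did not. The erythroid list (3 markers, all detected on every bone marrow array) summed to 18221% of the 75th percentile at 8 Gy and 4554% at 0 Gy with nilestriol, against 19161 to 30354% at 8 Gy and 9557 to 11957% at 0 Gy in the other arms. The stroma and bone list (5 of 5 detected) summed to 283% at 8 Gy and 142% at 0 Gy with nilestriol, against 271 to 360% and 182 to 261%. The skeletal muscle list (3 of 4 detected) summed to 29.8% at 8 Gy and 12.4% at 0 Gy with nilestriol, against 17.1 to 41.4% and 21.7 to 30.8%. In these 3 lists the nilestriol array at 0 Gy was the lowest of the 10, while the one at 8 Gy lay within the range of the other irradiated arrays or just below it. For megakaryocytes and platelets the list, which holds miR-126-3p itself and miR-223-3p, summed to 8111% at 8 Gy and 5634% at 0 Gy with nilestriol, against 4750 to 8305% and 3012 to 6388% in the other arms. The myeloid and blood list summed to 8561% at 8 Gy and 6218% at 0 Gy with nilestriol, against 5359 to 8997% and 3607 to 7051%. For neither was the nilestriol array at 0 Gy the lowest. The lymphoid list was lower at 8 Gy, with 124% at 8 Gy and 144% at 0 Gy with nilestriol, against 115 to 180% and 237 to 284%. The part of these markers in the miR-126-3p difference was not tested.

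**Figure D3:**
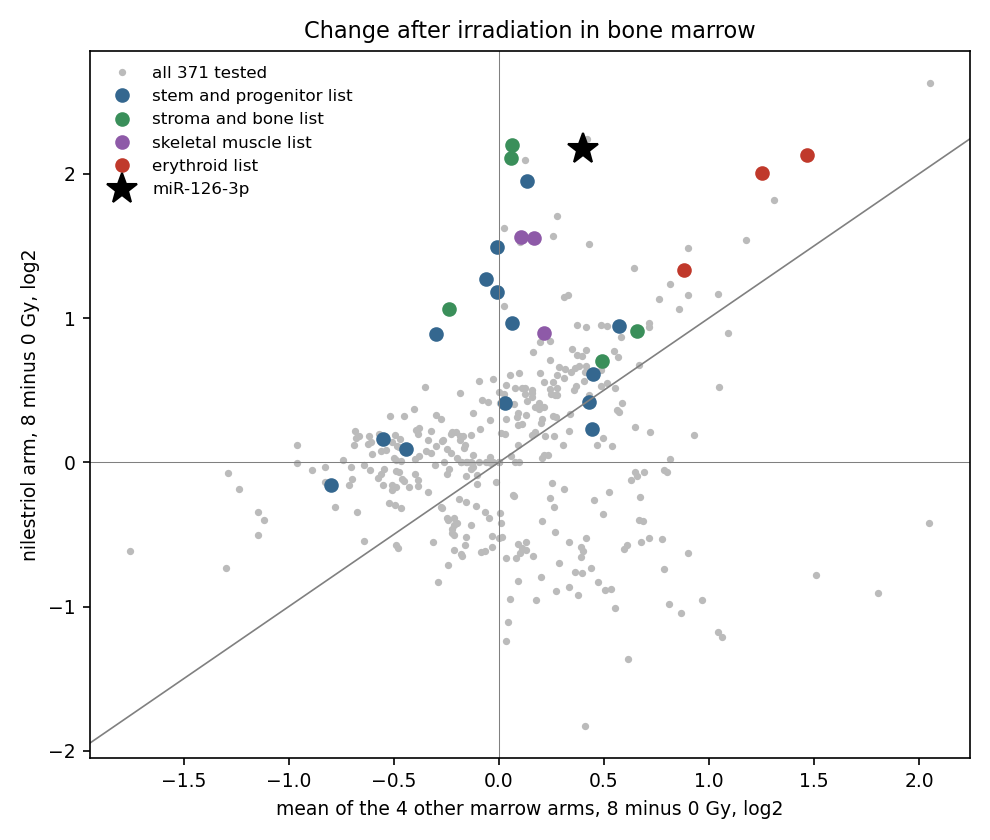
Difference between 8 and 0 Gy (log2) of each of the 371 tested bone marrow miRNAs in the nilestriol arm, on the y axis, against its mean over the 4 other arms, on the x axis, with the line of equality. miR-126-3p (star) lies at 2.17 against 0.40. Some stroma, muscle and stem and progenitor miRNAs lie beside it, high in the nilestriol arm and near 0 in that mean. The mean covers unequal arms, and with amifostine the medians were 0.91 for skeletal muscle and 0.51 for stroma and bone. Other members of these lists lie elsewhere, such as miR-140-3p (0.91 against 0.66) and miR-181a-5p (-0.16 against -0.80). Erythroid miRNAs were high on both axes.

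The miRNAs whose level followed miR-126-3p most closely over the 10 bone marrow arrays were let-7e-5p (Pearson r = 0.968), miR-125b-5p (0.960), miR-199a-3p (0.925), miR-497-5p (0.917) and miR-199a-5p (0.911), out of 295 detected on all 10. As background, miR-125b-5p is a regulator of haematopoietic stem cells, and miR-199a is abundant in mesenchymal cells. Spearman's rho was 0.927, 0.964, 0.891, 0.891 and 0.879 in the same order. Without the arrays farthest from the median, which are the nilestriol pair, r was 0.926, 0.906, 0.847, 0.843 and 0.829. The least alike were miR-1971 (-0.72) and miR-370-3p (-0.66). Over all 295 miRNAs the median r was 0.03 and 24.1% exceeded 0.5. The arrays shared their arms, slides and scaling, and these correlations are descriptions without a test.

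**Figure D4:**
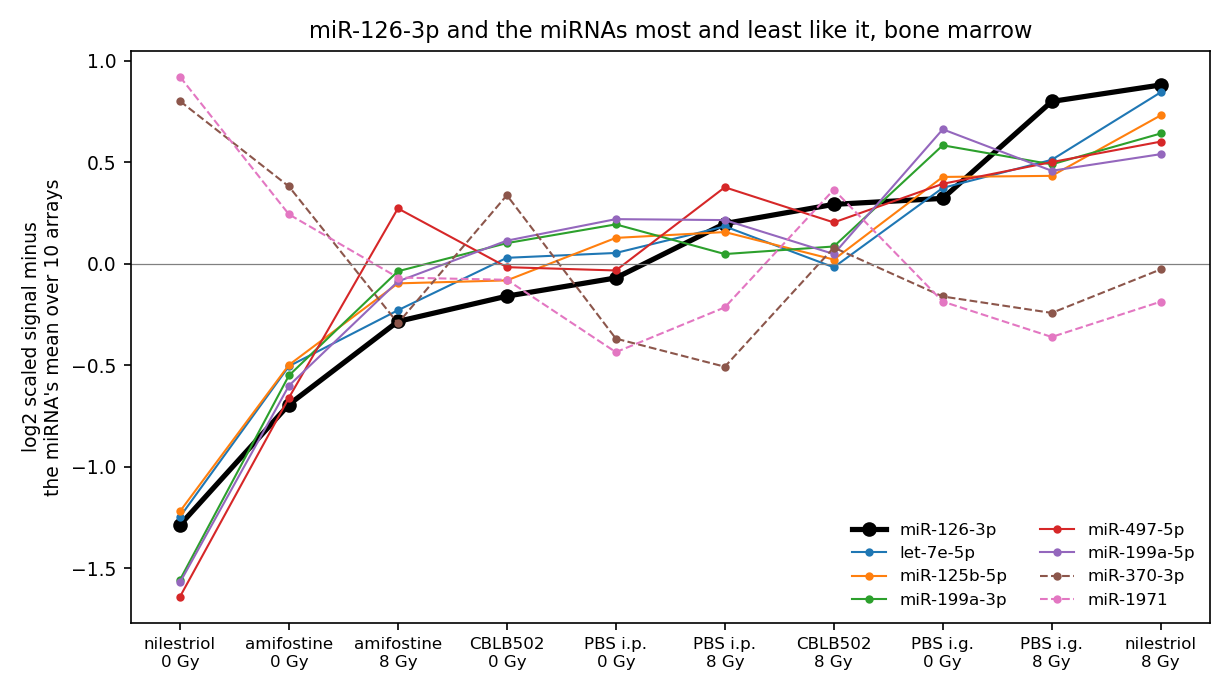
Log2 scaled signal minus each miRNA's mean over the 10 bone marrow arrays, for miR-126-3p (black), the 5 miRNAs most like it (solid) and the 2 least like it (dashed), with arrays in the order of miR-126-3p. The most alike miRNAs were chosen for following miR-126-3p over these arrays. They share the low value of nilestriol at 0 Gy (miR-126-3p at 27.1% of the 75th percentile) and the increase along the axis. miR-1971 and miR-370-3p are highest on that array.

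All 5 neighbours had their largest 8 minus 0 Gy difference in the nilestriol arm, as miR-126-3p did. They were chosen for following miR-126-3p over these same arrays, of which the nilestriol pair were its lowest and highest. A large nilestriol difference was thus in large part built into their choice. Their differences there were 2.09 for let-7e-5p, 1.95 for miR-125b-5p, 2.20 for miR-199a-3p, 2.24 for miR-497-5p and 2.11 for miR-199a-5p. The least alike had -0.83 for miR-370-3p and -1.11 for miR-1971. On the nilestriol array at 0 Gy miR-199a-5p was raised to the floor of -5.31, which shortens its 2.11. With amifostine the 5 neighbours lay between 0.28 and 0.93. There miR-497-5p (0.93), miR-199a-3p (0.51) and miR-199a-5p (0.51) exceeded the 0.41 of miR-126-3p. With PBS i.p. they lay between -0.15 and 0.41, and 1 of the 5, miR-497-5p, exceeded the 0.27 of miR-126-3p. With CBLB502 (-0.07 to 0.22) and PBS i.g. (-0.20 to 0.14) all 5 lay below miR-126-3p, at 0.45 and 0.48. miR-126-3p itself varied more than most miRNAs of bone marrow, with an SD of 0.66 (log2) over the 10 arrays, a value that 17 of the 295 exceeded and that compares with a median of 0.37.

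Among miRNAs tied to vessels, the list of angiogenesis and endothelium had 23 of 26 members tested for bone marrow irradiation. Of these 15 were higher and 8 lower at 8 Gy. miR-221-3p (0.48) and miR-222-3p (0.65), which curb endothelial growth and c-Kit, were called higher and 0 were called lower. The list median was 0.19 beside 0.09 over all tested miRNAs. Of all 371, 9.16% were called higher and 3.5% called lower. The stem and progenitor list, which shares both with it, had 12 of 16 members higher and 4 lower, with a median of 0.24. Of these 2 were called higher and 1 called lower, miR-181a-5p at -0.67. In the stroma and bone list miR-140-3p (0.71) and miR-140-5p (0.53), abundant in cartilage, were called higher. The erythroid list was called higher in 3 of 3 members, with miR-144-3p at 1.60, miR-451a at 1.40 and miR-144-5p at 0.97. All 3 lymphoid miRNAs were lower, and 2 were called, miR-181a-5p and miR-181b-5p (-1.02). miR-126-3p, at 0.76, was the highest of the angiogenesis list, but did not pass with its wider spread between arms.

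The drugs were compared with PBS of both routes together, over both doses. miR-126-3p was at -0.80 ± 0.41 (log2, SE) with amifostine, -0.52 ± 0.41 with nilestriol and -0.25 ± 0.41 with CBLB502 (adjusted p = 0.303, 0.387 and 0.647 with limma). It was called in none of these 3 comparisons, which called 0%, 0% and 12.1% of 371 miRNAs, with 76, 95 and 139 at an unadjusted p under 0.05. For amifostine it was the lowest of the 371 differences. Beside the PBS i.p. array of its dose, which shares its route, amifostine differed by less, -0.48 at 8 Gy and -0.62 at 0 Gy. Both amifostine arrays, at 54.2% and 40.8%, lay below all 4 PBS arrays (62.9 to 115.0%), and at 8 Gy alone the fit gave -0.78 ± 0.37 (adjusted p = 0.563, 0% called). At that dose it passed with normexp background correction, at -0.75 (adjusted p = 0.0274, 4.04% called), and with an offset instead of the floor, at -0.76 (adjusted p = 0.0341, 6.47% called). In these fits the lone amifostine array is assumed to vary like the PBS pairs, which differ in route and alone supply the spread. With normexp and with the offset the SE was 1 shared value for both strands, 0.23 and 0.25, against 0.37 for miR-126-3p in the main fit. The calls in these settings thus did not rest on the spread of miR-126-3p itself. Amifostine and slide cannot be told apart here.

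The nilestriol value hid arrays of opposite sign. Beside the PBS i.g. array of its dose, miR-126-3p differed by 0.08 with nilestriol at 8 Gy and by -1.61 at 0 Gy, a 3.05-fold lower signal. Without the nilestriol array at 8 Gy the drug difference was -1.40 and passed (adjusted p = 0.0231 with limma, 26.2% called), and without the one at 0 Gy it was 0.39. At 8 Gy alone the fit gave 0.38 ± 0.37 (adjusted p = 0.784). Nilestriol minus amifostine, on arrays of the same slide, was 0.29 ± 0.47 (adjusted p = 0.809). With CBLB502, on the slide of its vehicle, miR-126-3p differed by 0.09 at 8 Gy and by -0.09 at 0 Gy from PBS i.p., and at 8 Gy from both PBS routes by -0.21 ± 0.37 (adjusted p = 0.756).

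For miR-126-5p the drug arrays without detection give only ratios of undetected signals, which are neither measured differences nor bounds. Against PBS of both routes together, the signal was 2.34-fold lower with amifostine and 1.50-fold lower with CBLB502 over both doses. With nilestriol at 0 Gy it was 3.20-fold lower than with PBS. With floored values the fits gave -0.28 for amifostine, -0.28 for CBLB502 and -0.03 for nilestriol (adjusted p = 0.388, 0.306 and 0.939), without a call.

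Over both doses, lists around miR-126 lay mostly below PBS with each drug, with few calls. With amifostine the stem and progenitor list was lower in 15 of 16 members with a median of -0.36, and the angiogenesis list had a median of -0.19, beside 0.05 over all, with 0 called. The lowest members of both lists were miR-126-3p and miR-100-5p (-0.80 each), and the highest of the angiogenesis list were miR-378a-3p (0.25) and miR-296-5p (0.13). With nilestriol the angiogenesis list was lower in 23 of 23 members (median -0.36) and the stem and progenitor list in 15 of 16 (median -0.40), beside 0.02, with 0 called. At 8 Gy alone this was not so for every list. With nilestriol at 8 Gy the stem and progenitor list was higher in 11 of 16 members (median 0.12) and the angiogenesis list in 8 of 23 (median -0.15), beside 0.03 over all. With amifostine at 8 Gy the angiogenesis list was higher in 12 of 23 members (median 0.00) and the stem and progenitor list in 3 of 16 (median -0.30), beside 0.01, with 0 called in either drug. With CBLB502 the angiogenesis list was higher in 4 and lower in 19 of 23 members, with a median of -0.28 beside 0.15. Its members miR-10a-5p (-0.90) and miR-503-5p (-0.63) were called lower. Of all 371, 5.39% were called higher and 6.74% called lower with CBLB502. For the nilestriol by irradiation difference the angiogenesis list was above 0 in 23 of 23 members (median 0.42) and the stem and progenitor list in 16 of 16 (median 0.77), beside 0.23 over all, again with 0 called. The highest members of both lists together were miR-125b-5p (1.93) and miR-126-3p, and the lowest miR-10a-5p (0.11) and miR-296-5p (0.12).

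The route of PBS set the scale for such differences. PBS i.g. exceeded PBS i.p. by 0.57 ± 0.11 for miR-126-3p and by 0.50 ± 0.08 for miR-126-5p, the fourth and the sixth highest of 362 miRNAs (adjusted p = 0.608 for each with limma, 0% called, 24 at an unadjusted p under 0.05). Scaled over these 4 arrays, as in that fit, the 3p gap was 0.70 at 8 Gy and 0.44 at 0 Gy. Over both doses it was wider than the 8 minus 0 Gy difference of the PBS arms (0.39), and these vehicle arrays lay on 1 slide.

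In hypothalamus the level of miR-126-3p was higher than in bone marrow under every condition present in both tissues. On a shared scale over 8 arrays it stood at 387% of the 75th percentile in hypothalamus and 72.8% in bone marrow with PBS at 8 Gy, and at 283% in hypothalamus and 55.7% in bone marrow with PBS at 0 Gy. With amifostine it stood at 274% in hypothalamus and 53.0% in bone marrow at 8 Gy, and at 396% in hypothalamus and 36.4% in bone marrow at 0 Gy. The lowest hypothalamus array thus exceeded the highest matched bone marrow array by more than the range within either tissue. The difference was 2.64 ± 0.24 (log2), a 6.24-fold higher signal (95% interval 2.01 to 3.27, adjusted p = 0.000625 with limma), and it was 2.35 to 3.44 in single conditions. In this comparison 297 of 530 miRNAs, 56%, were called, 40.2% as higher and 15.8% as lower in hypothalamus, and miR-126-3p ranked 103 from the top, so a call alone was common.

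The size of the tissue difference depended on scaling while its direction did not. It was 1.22 with the 75th percentile taken over all miRNAs, 2.0 with quantile normalization and 2.23 ± 0.16 within slide 1, where 45.9% were called, and it passed each time (adjusted p at most 0.0153 over 14 alternatives with limma). For miR-126-5p the difference was 2.31 ± 0.16 (adjusted p = 0.000234), with bone marrow at the floor on 3 of the 4 arrays. In the amifostine arms, where bone marrow had no detection, hypothalamus was 9.54-fold higher, as a ratio to undetected signals and not a bound.

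miR-126 stood between the neural and the blood miRNAs in this comparison. A miRNA without detection in 1 tissue has only a bound here, or a ratio to undetected signals, as a fold on scaled signals. In the neuron list 4 of 4 members were higher in hypothalamus, miR-128-3p by 5.51 (log2) and miR-124-3p, not detected in bone marrow, by at least 2442-fold. In the smooth muscle and pericyte list miR-143-3p and miR-145a-5p, which mark the contractile cells around vessels, were higher, by at least 20.4-fold and by 8.33-fold. The 8.33-fold is a ratio to undetected signals and not a bound. All 3 myeloid and blood members were lower, miR-223-3p at -9.52 (log2) and miR-142-5p, not detected in hypothalamus, at least 287-fold lower. All 5 members of the stroma and bone list were lower, 4 of them called, with miR-199a-3p at -1.57 and miR-199a-5p, detected on 1 of 4 hypothalamus arrays, at -1.70, both among those that followed miR-126-3p over the bone marrow arrays. miR-125b-5p, another of these, was 6.97 higher, so the miRNAs alike within bone marrow differed in direction between tissues.

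The angiogenesis and endothelium list split by tissue. Of its 26 members 15 were higher, 13 of them called, and 11 were lower, 10 of them called, in hypothalamus, with a median of 0.68 beside 0.38 over all 530 miRNAs. Highest were miR-132-3p and miR-218-5p, both also abundant in neurons, which were not detected in bone marrow and at least 583-fold and at least 316-fold higher in hypothalamus. The members of the miR-17 cluster, which proliferating blood cells also carry, were lower: miR-20a-5p (-4.21), miR-92a-3p (-4.13), miR-17-5p (-3.61), and miR-18a-5p and miR-19a-3p, not detected in hypothalamus, by at least 54.3-fold and at least 35.5-fold. miR-130a-3p (2.15) and miR-101a-3p (2.09), detected in both tissues, lay closest to miR-126-3p. The stem and progenitor list split likewise, with 12 of 17 members higher, 11 of them called, 5 lower, all called, and a median of 2.15. As background, many members of this list are not restricted to endothelium.

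**Figure D5:**
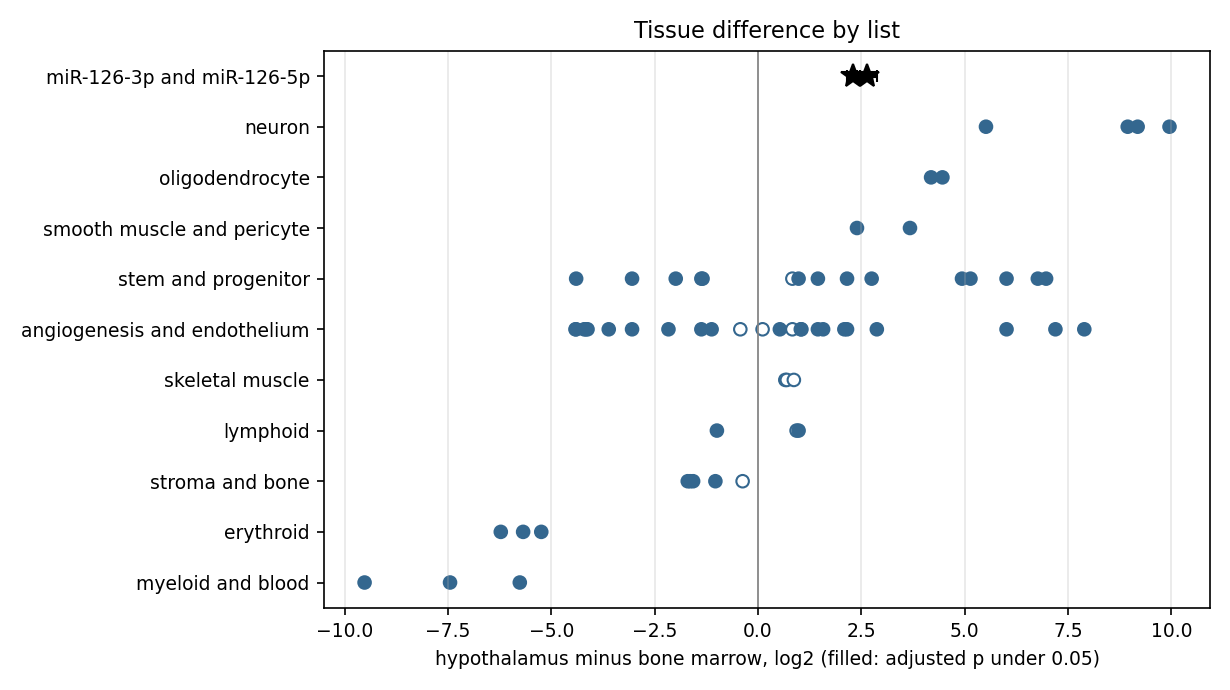
Hypothalamus minus bone marrow (log2, 8 matched arrays) for both miR-126 strands and for the members of each marker list, filled where the adjusted p was under 0.05. Undetected values are set to the floor, which shortens the longest differences. Both strands (2.64 and 2.31) lie between the neuron and the blood lists. The smooth muscle and pericyte miRNAs lie at 2.39 and 3.68. Matched bone marrow had no detection of these, so the floor shortens their differences and their height cannot be set against miR-126.

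Within hypothalamus 8 Gy was not followed by a detectable change of miR-126. miR-126-3p stood at 390.7% at 8 Gy and 523% at 0 Gy with amifostine, and at 494.7% at 8 Gy and 448.7% at 0 Gy with PBS, which are differences of -0.42 and 0.14 (log2) of opposite sign. Before scaling its 4 signals lay within 1408 to 1478 intensity units, so the scaled values differed through the arrays' 75th percentiles. The fit gave -0.14 ± 0.26 for miR-126-3p and -0.30 ± 0.20 for miR-126-5p (adjusted p = 1 for both with limma, 0% of 544 miRNAs called and 0 at an unadjusted p under 0.05). miR-126-5p measured 13.2% at 8 Gy and 18.2% at 0 Gy with amifostine, and 14.2% at 8 Gy and 15.6% at 0 Gy with PBS.

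Amifostine minus PBS in hypothalamus was -0.06 ± 0.26 for miR-126-3p and 0.06 ± 0.20 for miR-126-5p (adjusted p = 1 for both, 0% called, 1 at an unadjusted p under 0.05). The angiogenesis list had a median 8 minus 0 Gy difference of -0.14, with 2 of 21 members above 0, beside -0.08 over all miRNAs and with 0 called. The tissue by irradiation difference, hypothalamus minus bone marrow, was -0.50 ± 0.45 for miR-126-3p and -0.40 ± 0.41 for miR-126-5p, and the tissue by amifostine difference was 0.53 and 0.31 (adjusted p = 1 for each, 0% of 530 called, 21 and 3 at an unadjusted p under 0.05). A different response of the tissues was therefore not detectable with 1 array per condition.

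Whether the strands moved together after 8 Gy was examined last, as the 8 minus 0 Gy difference of miR-126-3p minus that of miR-126-5p in each of the 7 arms. With the floor it averaged 0.45 ± 0.55 (log2, SD, n = 7 arms) and was positive in 7 of 7 (exact sign-flip permutation test over arms, two-sided, p = 0.0156, the smallest that 7 arms allow). The 5p strand lay at the floor on 6 bone marrow arrays, which shrinks its differences. In the 4 arms with both strands detected at both doses it averaged 0.15 with the floor (exact p = 0.125, the smallest that 4 arms allow). In the same 4 arms without the floor it averaged 0.10 (exact p = 0.375), with 0.19 for PBS i.g. and -0.11 for PBS i.p. in bone marrow and with 0.04 for amifostine and 0.28 for PBS in hypothalamus. In the nilestriol arm the 5p strand has only the ratio to an undetected signal given above, so the strands could not be set against each other there.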

How the data were processed

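The 14 deposited scanner files hold 1-colour spot intensity. Per the file headers they were written by Feature Extraction (Agilent, version 10.7.1.1), with the background already subtracted and 0 or 1 flags for outliers, saturation and detection. The value table that the authors deposited holds log2 values. Its scaling is not given in the sources used here, so it served as an alternative.

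Spots flagged as outliers (4.42 to 5.27% of 49880 per array) were left out and the rest averaged per probe and then per miRNA. Each array was scaled to its 75th percentile, taken over the miRNAs that all arrays of a fit detected (296 in bone marrow, 471 in hypothalamus, 277 in matched arrays), raised to a floor (the median of the arrays' 5th percentiles of detected miRNAs) and put on the log2 scale. miRNAs detected on at least 50% of the arrays were tested, with limma 3.58.1 (lmFit, eBayes) in R 4.3.3 with the package data.table (1.17.8) and Benjamini-Hochberg adjustment at 0.05, two-sided, over all tested miRNAs, in 18 comparisons. The fit was tested on simulated data. Sequences are from RefSeq (GRCm38.p6), which held a mature entry for 1 of the 2 strands. Bounds for miRNAs undetected in a group compare the bright arrays with the higher of the undetected signal and the lowest detected signal. Where the undetected signal was the higher on all such arrays, the result is a ratio to that signal and not a bound.

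Members, lists and tests were chosen with earlier results of these data known. The text names both strands, the 5 most and 2 least similar miRNAs, and list members that passed, or the 2 highest and 2 lowest where none did.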

Additional observations from a re-analysis of the deposited data

Results flagged for a closer look

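The 8 minus 0 Gy difference of miR-126-3p in the nilestriol arm of bone marrow, 2.17 on the log2 scale, stood apart from the other 4 arms, which lay between 0.27 and 0.48. Its gap to the nearest arm took 0.890 of the whole range, above the critical value of 0.71 for 5 values. The miR-126-5p level of the PBS i.g. array at 0 Gy, -4.96 on the log2 scale, stood apart because the other 4 bone marrow arrays at 0 Gy all lay at the floor of -5.31. Such a mark falls on about 1 in 20 groups of unfloored values by chance. That rate does not apply to miR-126-5p, where setting the other 4 arrays to 1 value fixed the mark in advance.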

How the results depend on the processing

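Over 380 alternatives to 38 results, 340 kept their direction and their side of the threshold, 7 were weaker, 9 stronger, 1 moved and 23 reversed, and 58 of 193 counts of called miRNAs moved by over 1.5 times. The cause was not tested unless stated. For miR-126-3p, bone marrow irradiation was called with an offset instead of the floor (0.72) and without the nilestriol arm. Leaving out each arm gave 0.40 to 0.84, and slides 1 and 2 alone 0.41 and 1.32. Amifostine at 8 Gy was called with normexp background (-0.75) and with an offset (-0.76), and so was nilestriol by irradiation (1.71 with each). In those settings both strands had 1 shared SE, which was not that of miR-126-3p itself. CBLB502 by irradiation turned to -0.13 with the 75th percentile over all miRNAs, CBLB502 against the vehicle of its route alone to 0.0024, and amifostine in hypothalamus to 0.021 with quantile normalization, 0.055 with the authors' value table and 0.22 at 0 Gy alone. Hypothalamus irradiation turned to 0.14 in the PBS arm alone and tissue by irradiation to 0.065 in the PBS i.p. arm alone. Leaving out each array gave -1.40 to 0.39 for nilestriol against vehicle, called only without the 8 Gy nilestriol array and positive only without the 0 Gy one, and for miR-126-5p -0.033 to 0.18.

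For miR-126-5p, the authors' value table, which gives undetected miRNAs 1 low value, called CBLB502 (-6.52) and amifostine (-6.55) at 8 Gy, turned nilestriol at 8 Gy to -0.32 and amifostine in hypothalamus to -0.055, and left the tissue difference at 3.70 without a call. Nilestriol at 8 Gy was also -0.15 with the percentile over all miRNAs, -0.16 with quantile normalization and -0.25 with normexp. Amifostine in hypothalamus was -0.036, -0.012 and -0.075 with these, and -0.11 at 8 Gy alone. With normexp the vehicle arms stood at -0.041, CBLB502 by irradiation at 0.16, amifostine by irradiation at 0.019 and nilestriol against amifostine at 0.00. The strand difference was 0.44 with quantile normalization, 0.56 in bone marrow alone, 0.15 in 4 arms, 0.16, 0.089 and 0.10 without the floor (7, 5 and 4 arms, the first 2 with undetected arrays), -0.44 with the authors' value table, and 0.25 to 0.51 without each arm. The median r of the 5 most alike miRNAs was 0.96 with arm means removed, against 0.92.

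Counts of called miRNAs ran from 0 to 89 for bone marrow irradiation (47), 0 to 107 for CBLB502 (45) and 160 to 382 for the tissue difference (297). The labels give no replicate numbers, so the arm was the block that paired 8 with 0 Gy. Without that block miR-126-3p stood at 0.76 (adjusted p = 0.159). Both 5p probes were near background in bone marrow, which limits every 5p value there.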
